A study of Mus musculus with 2 samples.

Results

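A group of 9 genes of the actin cytoskeleton and of focal adhesions was followed through a list of Klf4 binding peaks from mouse mesenteric arcades. They are Actb and Actg1, Pfn1 and Cfl1, Actn1, Actn4 and Myh9, and Tln1 and Zyx. The peaks were those with a midpoint inside a fixed window around each gene in the mm9 genome, 15 peaks of the 7313 in the list. The members were chosen by the scores of their peaks, Pfn1 for a score among the highest of the list, and the windows were set with the peaks in view, so the number, width, score and rank of the peaks are a description, with no test.

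Chromatin immunoprecipitation followed by sequencing (ChIP-seq) with an antibody against Klf4, a zinc-finger transcription factor of the Krüppel-like (KLF) family, was carried out on the mesenteric arcades of C57BL/6 mice on chow diet. The labels list 1 library from SMC eYFP+/+ Klf4delta/delta mice, whose Klf4 deletion the labels tie to SMC, and 1 from SMC eYFP+/+ Klf4WT/WT mice (SMC, smooth muscle cells), so both groups carry the eYFP allele. The Cre driver, the age and sex of the mice and any pooling of animals are not stated in the sources used here. By its label the tissue holds smooth muscle cells, macrophages, epithelium and further cell types, and no peak can be traced to one of them. A list of peaks holds no expression by which the labelled cell types could be checked. The list names no genotype, so Klf4delta/delta and Klf4WT/WT tissue were not compared, and a Klf4 peak here means a peak of this list.

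Cells carry actin as free monomers and as filaments, and cycle it between these states. Filaments are bundled by crosslinking proteins, pulled by myosin motors and tied to the extracellular matrix through integrins in focal adhesions. In mural cells of vessels this machinery bears wall tension, and many of its genes are textbook targets of serum response factor (SRF), which binds the CArG box. KLF factors bind GC-rich and CACCC-type sequence.

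The list of positions holds no sequence. The promoter sequences of the members are given beside it and are not known to lie under its peaks. The promoter table (RefSeq, GRCm38.p6) covers 250 bases before and 50 bases after the start site and held 8 of the 9 members, all except Actb. Printed here are the promoters of Pfn1, whose window held the highest peak; of Actg1, the 1 member with an exact CArG box; of Zyx, whose window held the highest peak score of the adhesion genes; and of Myh9, which held the most short KLF-type cores. Capitals mark 4 kinds of match on either strand. They are the short KLF-type core CACCC, read as GGGTG on the other strand, the GC box GGGCGG, the CArG box, and GGTGTGG or GGCGTGG. The last is the KLF-type core GGGTGTG or GGGCGTG shifted by 1 base, a form searched only after the promoters had been seen. Sequences run 5′ to 3′ along the gene. They are given in GRCm38.p6 and their positions cannot be set against the mm9 positions of the peaks.
Pfn1 (chr11:70654601-70654900, minus strand): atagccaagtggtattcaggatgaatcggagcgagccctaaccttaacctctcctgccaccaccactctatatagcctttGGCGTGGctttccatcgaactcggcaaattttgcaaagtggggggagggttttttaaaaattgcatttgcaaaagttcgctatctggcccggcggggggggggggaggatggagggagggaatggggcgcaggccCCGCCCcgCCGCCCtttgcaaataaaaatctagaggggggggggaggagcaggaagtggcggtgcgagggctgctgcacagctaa
Actg1 (chr11:120348446-120348745, minus strand): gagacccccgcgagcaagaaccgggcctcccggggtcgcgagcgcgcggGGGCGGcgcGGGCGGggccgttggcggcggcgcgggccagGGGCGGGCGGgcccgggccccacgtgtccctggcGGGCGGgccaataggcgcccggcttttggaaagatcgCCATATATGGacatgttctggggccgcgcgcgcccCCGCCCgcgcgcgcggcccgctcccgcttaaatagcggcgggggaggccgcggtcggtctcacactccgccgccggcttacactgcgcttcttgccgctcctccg
Zyx (chr6:42349578-42349877, plus strand): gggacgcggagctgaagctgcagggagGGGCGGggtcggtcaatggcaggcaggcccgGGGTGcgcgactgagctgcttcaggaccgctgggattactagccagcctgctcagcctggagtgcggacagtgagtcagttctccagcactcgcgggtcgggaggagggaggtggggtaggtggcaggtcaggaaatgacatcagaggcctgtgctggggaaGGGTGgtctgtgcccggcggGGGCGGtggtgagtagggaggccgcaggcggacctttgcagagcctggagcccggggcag
Myh9 (chr15:77842126-77842425, minus strand): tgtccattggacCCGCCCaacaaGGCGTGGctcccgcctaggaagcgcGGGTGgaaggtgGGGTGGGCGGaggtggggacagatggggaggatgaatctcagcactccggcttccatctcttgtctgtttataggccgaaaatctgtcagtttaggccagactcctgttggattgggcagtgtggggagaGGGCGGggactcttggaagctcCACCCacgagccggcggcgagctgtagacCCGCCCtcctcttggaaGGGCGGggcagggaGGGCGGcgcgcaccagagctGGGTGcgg

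The 15 peaks were spread over all 9 windows, which lie on 8 chromosomes. The Actg1 window held 3 peaks, the windows of Actb, Pfn1, Cfl1 and Tln1 held 2 each, and those of Actn1, Actn4, Myh9 and Zyx held 1 each. These counts rest on windows of unlike length, from 20 kb at Pfn1 to 120 kb at Actn1. The windows add up to 525 kb and so held 28.6 peaks per Mb, against 2.86 per Mb of the span of all placed peaks. Nothing is read from this, since the windows were set with the peaks known. Score, the authors' own value for each peak, had a median of 164.44 over the 15 peaks (range 77.29 to 656.95), against 112.02 over the whole list (range 60.01 to 1023.8). Width had a median of 1346 bp (range 561 to 2877 bp), against 913 bp over the whole list. Of the 15 peaks, 8 were in the upper 25% of scores, which holds 25% of the list by construction, and 3 in the upper 10%, which holds 10%. No library depth is given in the sources used here, and 1 list allows no replicate error, so differences between the 9 genes below carry none.

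**Figure D1:**
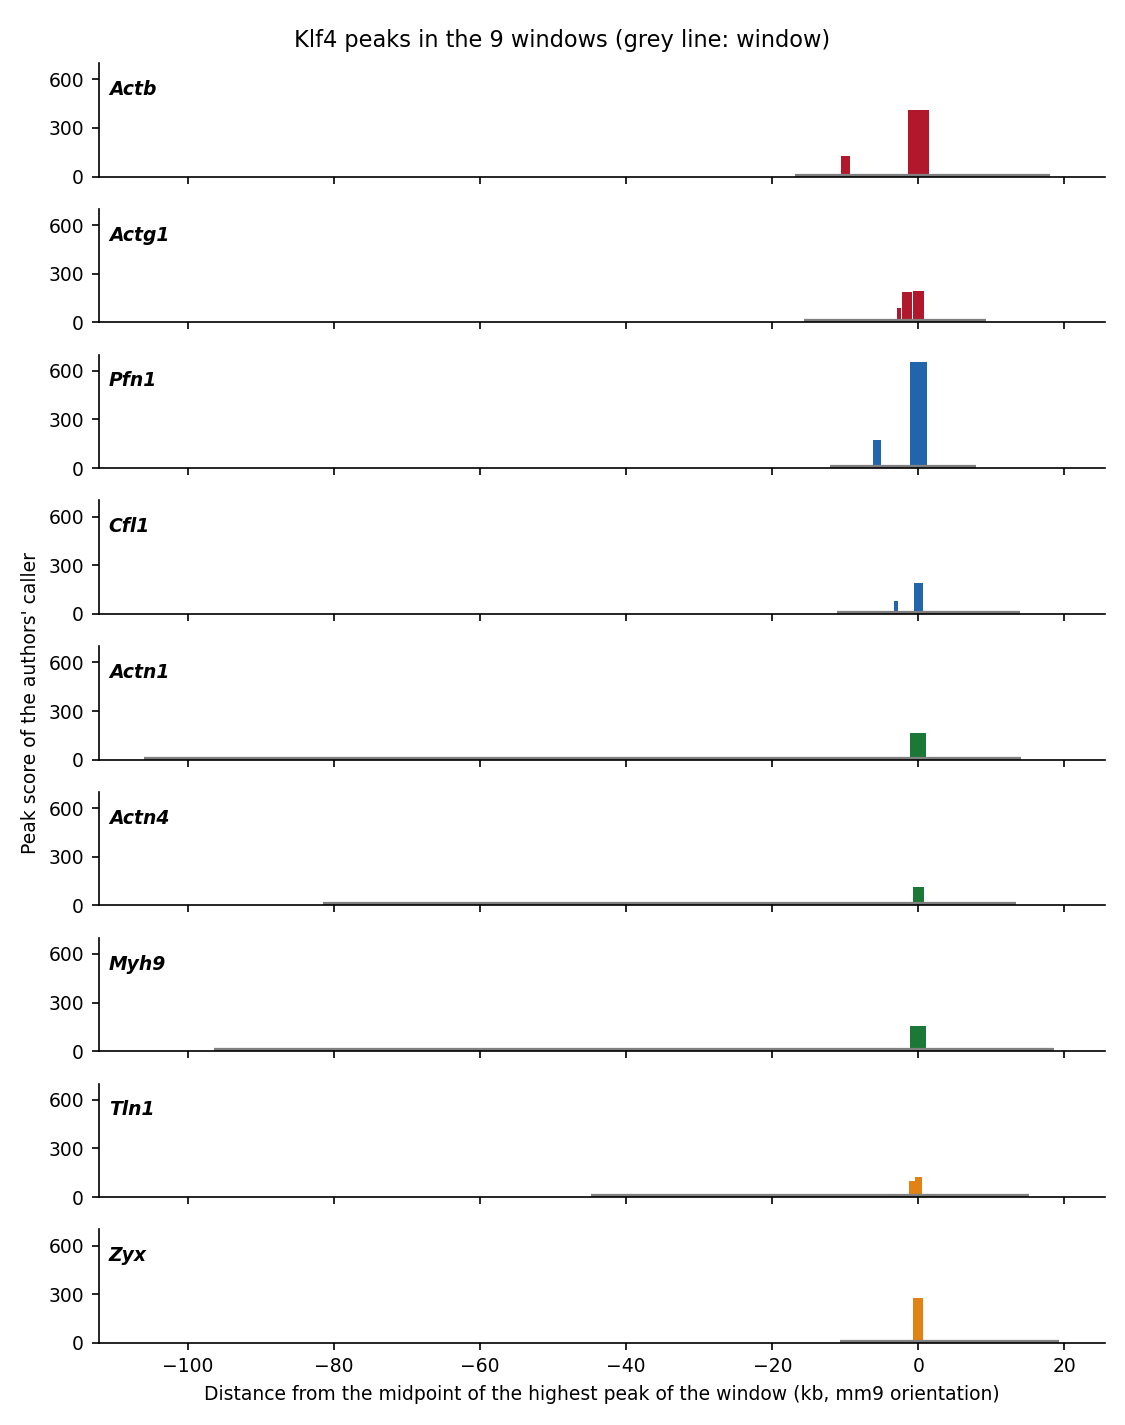
Klf4 peaks in the windows of the 9 genes, drawn by distance in kb from the midpoint of the window's highest peak (x axis) and by score (y axis, from 0); each bar is 1 peak at its true width and the grey line is the window. The Pfn1 peak at 656.95 and the Actb peak at 408.37 stand above the others, and the windows of Actn1, Actn4 and Myh9 hold 1 peak each, at 164.44, 112.09 and 153.94.

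The actin genes each had Klf4 peaks, in unlike shapes as called in the list. Actb and Actg1 encode the cytoplasmic beta and gamma actins, nearly identical proteins that build the filaments of non-muscle cells. In the Actb window, on chromosome 5, a peak of 2877 bp spanned 143665514 to 143668390 and had a score of 408.37. It ranked 85 of 7313 by score, 27 by width and 3 of the 502 peaks of chromosome 5. A second, lower peak of 1198 bp lay 7981 bp before it, at 143656335 to 143657532, with a score of 125.54 and rank 3018. The Actb window thus held 1 wide, high peak and 1 peak near the middle of the list, their scores 3.25-fold apart.

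The Actg1 window held 3 adjoining peaks in place of a single wide one. They lay on chromosome 11 at 120207715 to 120208382, 120208460 to 120209805 and 120209972 to 120211409. Gaps of 77 and 166 bp separated them, shorter than the sheared fragments of 200 to 600 bp. Whether the split is one of binding cannot be told. Their scores were 85.75, 186.34 and 196.14, in the order of position, and their ranks 5200, 1280 and 1109. The last 2 differed 1.05-fold in score, and the first, 668 bp wide, was the low one. Joined over gaps under 1 kb, they formed 1 region of 3695 bp, which ranked 12 by width among 6693 joined regions, against rank 79 for the Actb peak in the same joined list. The highest score was 2.08 times as high at Actb as at Actg1, where it is the score of 1 of 3 pieces. The summed scores of the windows were closer, 533.91 at Actb and 468.23 at Actg1. The bases covered by peaks were closer too, 4075 bp at Actb and 3452 bp at Actg1. The score of a joined region is that of its highest piece, so the rank by score of the Actg1 pieces and their joint width describe the same sequence.

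Of the genes for monomer binding and filament turnover, Pfn1 held the highest Klf4 peak of the 9 windows. Pfn1 encodes profilin, which binds actin monomers and feeds them to growing filament ends. The peak lay on chromosome 11 at 70465944 to 70468225, was 2282 bp wide and had a score of 656.95. It ranked 8 of 7313 in the list and 1 of the 617 peaks of chromosome 11. Its score was 5.86 times the list's median, and its width 2.50 times. It ranked 82 by width and 187 by score per kb, with 287.9 per kb against a list median of 129.0, and of 112 other peaks within 10% of its width 1 scored higher. A second peak, of 1111 bp at 70460861 to 70461971, lay 3972 bp away with a score of 174.48 and rank 1503, so that 79.0% of the summed score of the window lay in the highest peak.

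Cfl1 encodes cofilin, which severs filaments and returns monomers to the pool that profilin draws on. Its window held a peak of 1152 bp on chromosome 19 at 5490511 to 5491662, with a score of 192.13 and rank 1179. Another, of 561 bp at 5487708 to 5488268, lay 2242 bp before it with a score of 77.29 and rank 5872, the lowest score and the narrowest peak of the 15. The highest score was 3.42 times as high at Pfn1 as at Cfl1, and both windows held a pair of unequal peaks a few kb apart.

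The crosslinker and motor genes had 1 peak each, wide or moderately wide, with a score low for its width but at or above the list's median of 112.02. Actn1 and Actn4 encode the non-muscle alpha-actinins, which bundle filaments and link them to adhesions, and Myh9 encodes the heavy chain of non-muscle myosin IIA. The Actn1 peak lay on chromosome 12 at 81359885 to 81362071, was 2187 bp wide and scored 164.44, rank 1728. The Actn4 peak lay on chromosome 7 at 29745863 to 29747285, was 1423 bp wide and scored 112.09, rank 3631. The Myh9 peak lay on chromosome 15 at 77670376 to 77672556, was 2181 bp wide and scored 153.94, rank 1974.

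Set against width, these 3 peaks were the low ones of the 15. By width Actn1 and Myh9 ranked 105 and 107, and Actn4 977. By score per kb, the order turned to ranks 6659 for Actn1, 6542 for Actn4 and 6812 for Myh9, towards the low end of the list. Among peaks within 10% of the same width, 28.2% scored below the Actn1 peak, 25.4% below the Actn4 peak and 23.8% below the Myh9 peak. The 2 alpha-actinin genes differed 0.682-fold in highest score (Actn4 over Actn1), with Actn4 at the list's median.

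**Figure D2:**
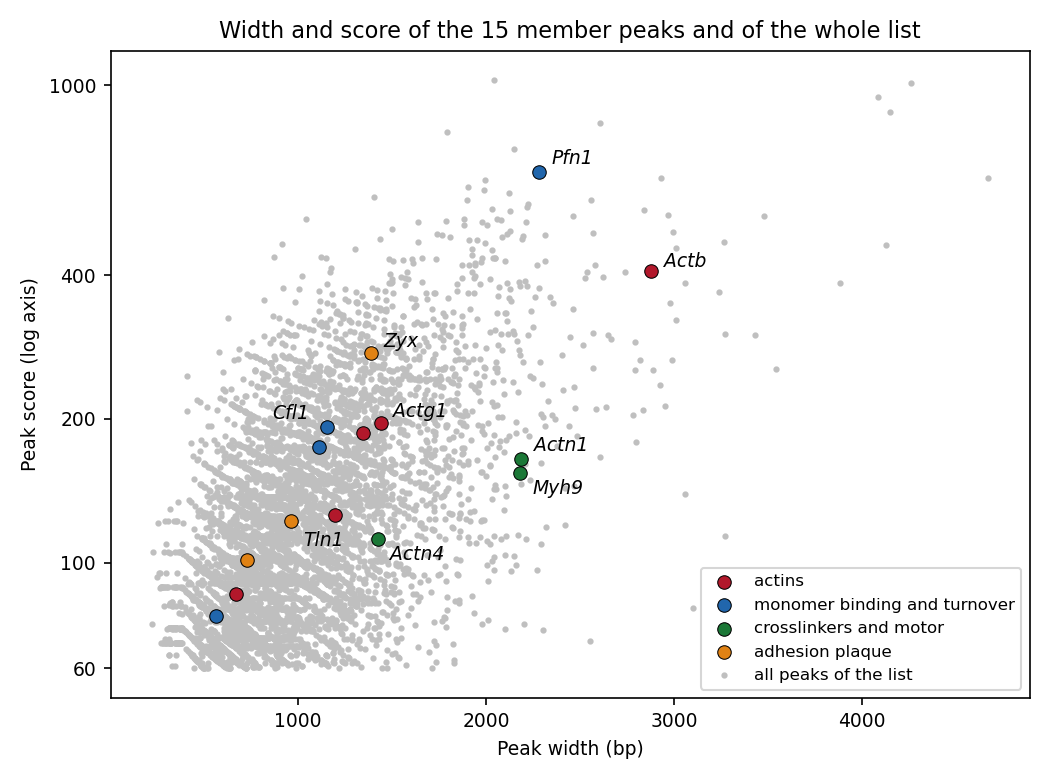
Width in bp (x axis) and score (y axis, log scale) of the 15 peaks of the 9 windows, coloured by the role of the gene, and of all 7313 peaks in grey; names stand beside the highest peak of each window. Pfn1 lies at the upper edge of the cloud for its width, and Actn1, Myh9 and Actn4 lie in its lower part for theirs.

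The adhesion plaque genes were unlike each other. Zyx encodes zyxin, a protein of focal adhesions and stress fibres that is recruited under tension. Its 1 peak lay on chromosome 6 at 42300043 to 42301428, was 1386 bp wide and scored 274.17, rank 373 of 7313 and rank 22 of the 348 on chromosome 6. Of 891 other peaks of like width, 89.8% scored lower. Tln1 encodes talin, which binds integrin tails and activates integrins. Its window held a pair of peaks only 12 bp apart on chromosome 4, at 43573623 to 43574352 with a score of 101.45 and at 43574365 to 43575326 with a score of 121.89. Their ranks were 4159 and 3197, and joined they spanned 1704 bp, so Tln1 had the lowest-ranked highest peak of the 9 after Actn4.

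**Figure D3:**
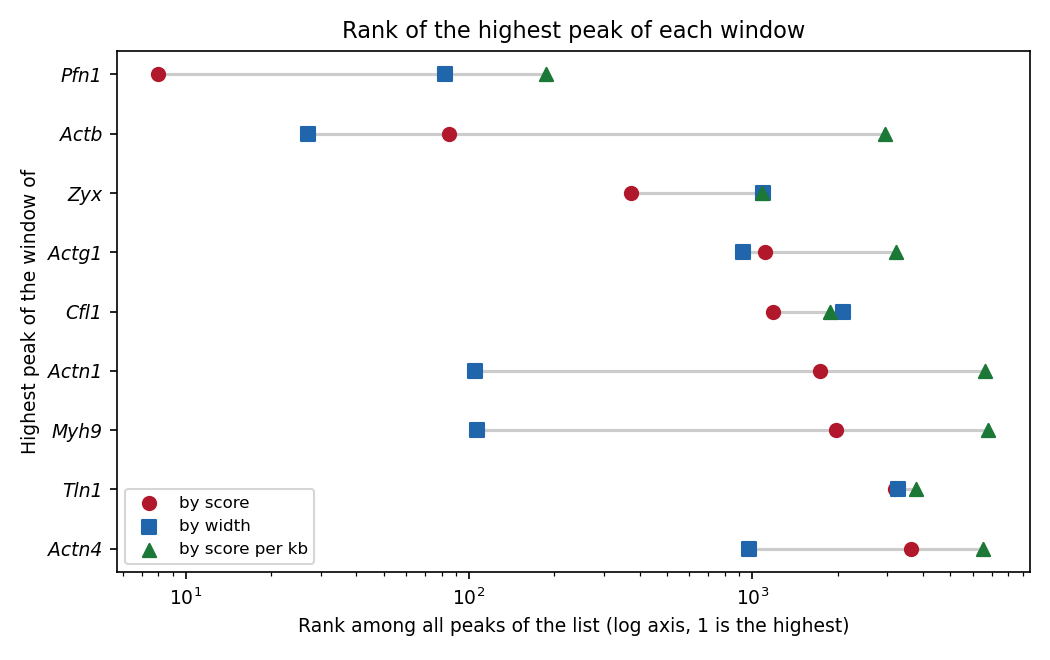
Rank of the highest peak of each window among the 7313 peaks (x axis, log scale, 1 is the highest), by score (circles), width (squares) and score per kb (triangles). Pfn1 ranks high on all 3 measures (8, 82 and 187), whereas Actn1 and Myh9 rank 105 and 107 by width but 6659 and 6812 by score per kb. The 3 measures are not independent. Score per kb is score divided by width, score and width correlate over the list (Spearman 0.549), and Pfn1 was chosen for its score.

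Ordered by their highest score, the 9 genes ran Pfn1, Actb, Zyx, Actg1, Cfl1, Actn1, Myh9, Tln1 and Actn4, a 5.86-fold range. Neighbours in this order differed little at Actg1 and Cfl1 (196.14 and 192.13) and at Actn1 and Myh9 (164.44 and 153.94), and with no replicate no order between neighbours can be called. All 9 highest peaks were in the upper 50% of scores, which holds 50% of the list, as were 12 of all 15 peaks. Nothing is read from these counts. The members were chosen by score, and the highest of several peaks is not comparable with single peaks. At least 2000 bp were reached by 4 of the 15 peaks, those of Actb, Pfn1, Actn1 and Myh9, and by 2.72% of the list. Width rose with score over the list (Spearman correlation 0.549), and the members were chosen by score, so nothing is read from this count either. A neighbour under 1 kb away was found for 5 of the 15, all at Actg1 and Tln1, and for 16.6% of the list. The windows were set with the peaks known, so this count too is only a description.

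The surroundings of the members ranged from crowded to nearly empty. Within 500 kb on either side, the highest Cfl1 peak had 23 other peaks, Actg1 20 and Pfn1 16, against a median of 6 over all peaks. The highest Actb peak had 12, Actn4 10, Tln1 9 and Actn1 8. Zyx and Myh9 had 2 each. The Myh9 peak was preceded by 890.6 kb without a peak and the Zyx peak was followed by 341.1 kb without one, so neither is one of a run of peaks. The nearest gap to any other peak was a median of 39.6 kb over the list.

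Widening every window by 10 kb at each edge added 2 peaks to the 15. The peak nearest to an edge from outside was one of 1716 bp with a score of 144.04, 1.47 kb beyond the Tln1 window, and it scored above both peaks inside, the nearer of which lay 15.2 kb within that edge. The other was 6.48 kb beyond the Actn4 window, with a score of 74.91. On the inside, the peak nearest to an edge was that of Pfn1 with a score of 174.48, 6.42 kb within.

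Read along the gene, the highest peak lay nearer to the window's edge on the gene's 5′ side than to its other edge in 8 of the 8 members with a strand in the promoter table. Nothing is read from this count, since the windows were set with the peaks known. From the 5′ side, the highest peak lay at 11.7% of the window's length (14.0 kb) at Actn1 and 14.1% (13.4 kb) at Actn4. It lay at 16.1% (18.5 kb) at Myh9 and 25.3% (15.2 kb) at Tln1, and these are the long windows. It lay at 35.8% (10.7 kb) at Zyx, 37.2% (9.31 kb) at Actg1, 39.6% (7.92 kb) at Pfn1 and 44.3% (11.1 kb) at Cfl1, the short ones. In kb, the highest peaks thus lay no nearer to the 5′ side in the long windows than in the short ones. At Pfn1 the lower peak lay further along the gene, at 67.9%, and at Cfl1 it lay nearer the 5′ side, at 32.0%. The strand was taken from GRCm38.p6, and where the start sites lie inside these mm9 windows was not used here, so the peaks are not assigned to promoters, exons or introns.

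Other genes lie beside the members, and which of them fall inside the mm9 windows was not examined. In the gene table (GRCm38.p6, names and order only), the protein-coding neighbours of Pfn1 were Rnf167 and Eno3, the muscle enolase, whose record overlaps that of Pfn1. The record of Zyx overlapped that of Epha1, an ephrin receptor, and the record of Actn4 that of Capn12. Cfl1 lay between Mus81 and Snx32, Tln1 between Tpm2, a tropomyosin of muscle filaments, and Creb3, and Actg1 between Bahcc1 and Fscn2. Actb lay between Fbxl18 and Fscn1, the actin bundler fascin. Which gene of a neighbourhood a peak serves cannot be told from the list.

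Among the promoters of the members, GC boxes were frequent. The longer KLF-type cores were found in 0 of 8 in one form and in 3 of 8 in the other. Sequence was not used to choose the members, but the promoters are a description, with no test. The GC box GGGCGG, a binding sequence of Sp and KLF factors, was found in 7 of 8 member promoters, all except Tln1, against 35.7% of all 32851 promoters of the table and 46.2% of the 21263 of protein-coding genes. Actg1 and Myh9 held 6 each. The median GC content was 66.3% in the member promoters (54.7% at Cfl1 to 77.3% at Actg1), against 56.3% in those of protein-coding genes. The part of base composition in the number of GC boxes was not tested.

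The KLF-type core GGGTGTG or GGGCGTG was found in 0 of 8 member promoters, against 15.5% of all promoters and 17.8% of those of protein-coding genes. These 8 promoters are too few to tell such shares apart. The form shifted by 1 base, GGTGTGG or GGCGTGG, was found in 3, those of Pfn1, Cfl1 and Myh9, against 15.2%; it was searched only after the promoters had been seen. In Pfn1 it stands 170 bases before the start site, in Cfl1 118 and in Myh9 227. The shorter CACCC, which GGGTGTG contains on its other strand, was found in 4 of 8, at Actn4, Myh9, Tln1 and Zyx, close to the 57.5% of all promoters. Myh9 held 4 copies, 1 of which shares a base with a GC box, and Pfn1, whose window held the highest score of the 9, held none. No match says only that these letters are not in this window of 300 bases.

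An exact CArG box was found in 1 of 8 member promoters, that of Actg1, against 1.63% of all promoters. It stands 90 bases before the start site, in the printed sequence, with no GC box touching it. With 1 mismatch allowed in the outer CC and GG, Cfl1 joined it, against 13.9% of all promoters. TATAAA was found in 1 member promoter, that of Myh9, on the other strand, against 13.6%.

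**Figure D4:**
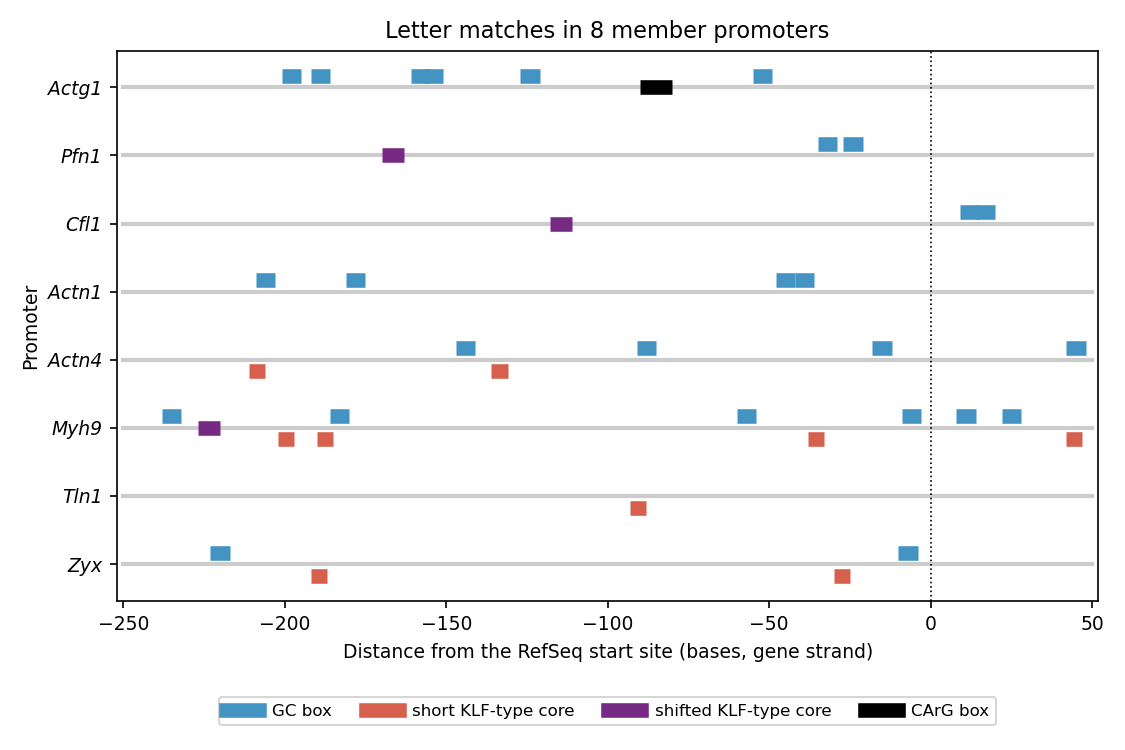
Matches in the promoters of 8 members by distance in bases from the RefSeq start site (x axis, 0 is the start site, gene strand); blue marks the GC box, red the short KLF-type core, purple the shifted KLF-type core and black the CArG box. GC boxes occur in 7 of the 8 promoters and a CArG box in that of Actg1.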

How the data were processed

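ChIP-seq of Klf4 was carried out on 1 Klf4delta/delta and 1 Klf4WT/WT library. Per the labels' protocols, chromatin was fixed with 1% paraformaldehyde for 10 minutes and sheared to fragments of 200 to 600 bp, which limits how finely a peak is placed. The authors deposited 1 list of peaks without a header. It gives a score for each peak, the deposited score of the authors' caller, whose peak names begin with MACS and whose formula for the score is not recorded there. The submitters' processing notes name Bowtie, SAMtools and the build mm9 and give no versions. The caller's version, threshold and control library, the treatment of reads with several matches, and the read depth are not stated in the sources used here.

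Peak starts were moved by 1 base to be 1-based. Peaks were assigned to the 9 windows by midpoint, and ranked over all 7313 peaks, ties at the better rank. Motifs were searched by exact letters on both strands of RefSeq promoters (GRCm38.p6); coordinates were not moved between builds. A list of 24 further genes, of the cytoskeleton and adhesions and Srf, 19 with a promoter in the table, was searched alike, and peaks near these genes were not analysed here, since no mm9 annotation was used. Members and lists were chosen with earlier results of these data known. All 9 members are named. The assignment, joining and motif search were tested on simulated data. Alternatives were score thresholds, window edges, joining, other rankings and other motifs. Python 3.11.15, numpy 2.4.6, pandas 2.3.3 and matplotlib 3.10.9 were used.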

Additional observations from a re-analysis of the deposited data

How the results depend on the processing

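The 15 peaks of the 9 windows became 8 with the upper 25% of scores, which left peaks at Pfn1, Actb, Actg1, Cfl1, Zyx and Actn1 and none at Tln1, Myh9 and Actn4. Their number stayed within 1.5 times the deposited count with the upper 50% of scores (12), any overlap (15), windows widened by 10 kb (17) or narrowed by 5 kb (15), and joining under 1 kb (12). The median score, 164.44, was 153.94 without the Pfn1 window, 192.13 with the highest peak of each gene and 153.94 with widened windows. The list's median was 112.02, and nothing is read from the difference, since the members were chosen by score. The median rank of the 9 highest peaks was 1179 by score, 924 by width and 3223 by score per kb. Member promoters with a KLF-type core numbered 0 with GGGTGTG or GGGCGTG, 4 with CACCC and 3 with the form shifted by 1 base, added after the promoters were seen; those with a CArG box numbered 1, and 2 with a mismatch. No paired analysis was possible because the list names no genotype and each genotype has 1 library, which also left no replicate to leave out. With read depth not given, the lack of a further peak in a window does not show absent binding.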

Other observations

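Promoters of 19 further genes (integrins and their adaptors, filament-binding proteins, myosin light chains, Arp2/3 subunits, membrane linkers and the transcription factor gene Srf) were searched for the same letters. The KLF-type core GGGTGTG or GGGCGTG stood in 15.5% of all promoters and 17.8% of those of protein-coding genes. It was found in none of the 8 member promoters and in 7 of these 19 genes. They were those of Arpc2, a subunit of the filament-branching Arp2/3 complex, Cap1, Cnn2 (calponin 2), Ezr (ezrin, a linker of filaments to the membrane), Iqgap1, Lims1 and Tpm1 (a tropomyosin). The form shifted by 1 base, GGTGTGG or GGCGTGG, stood in 3 of the 8 member promoters and 5 of these 19, against 15.2% of all promoters. The shorter CACCC stood in 4 of the 8 member promoters and 14 of these 19, against 57.5% of all promoters. The exact CArG box stood in 4 of 19, against 1.63% of all promoters: Cnn2, Myl9 (a myosin regulatory light chain), Vcl (vinculin) and Srf itself. The GC box stood in 17 of 19, against 35.7% of all promoters and 46.2% of those of protein-coding genes. The median GC content of these promoters was 67.7%, against 56.3% for protein-coding genes. The part of base composition in these matches was not tested. Genes with more than 1 promoter in the table count once, with a match in any, so their chances of a match are greater than those of a single promoter. The difference between the members and these genes was not tested, and no peak was assigned to them.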
